A study of Homo sapiens with 8 samples.

Results

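The p53 target genes studied here were 10 genes chosen by symbol: CDKN1A, MDM2, GDF15, SESN1, TP53INP1, ZMAT3, RRM2B, BTG2, AEN and PHLDA3. All 10 were found among the 58440 genes of the count table, and all 10 were among the 17144 genes that passed the filter on low counts. RNA with polyA tails was sequenced, with strand kept, from 8 samples of HEK293, a cell line of human embryonic kidney origin. The labels describe 4 groups of 2 samples: cells that stably overexpressed the serotonin receptor HTR1E and were given serotonin, control cells given serotonin, HTR1E-overexpressing cells with no ligand, and control cells with no ligand. One protocol text serves all samples: 3 h without serum, then serotonin at 1 µM for 1 h. The labels do not say whether the stable line was 1 clone, what the control cells carried, or whether samples of a group came from separate cultures, so p-values measure only the spread between these samples.

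The names in the count table give the treatment of each library, but not its cell line. Each name holds the word for serotonin or for no ligand and a tag, the letter A or B with or without a second letter, so 4 libraries were serotonin and 4 were no ligand. The libraries are called A1 and B1 where the letter stands alone and A2 and B2 where a second letter follows. What the tags stand for is not given in the sources used here. Serotonin was therefore compared with no ligand over all 8 libraries, with the first letter of the tag as a term, and then within the A-named and the B-named libraries. No comparison between the cell lines was made, and the difference between the responses under each letter was not tested. In normalised counts-per-million (CPM), HTR1E itself had 220.9 and 226.0 CPM in serotonin A1 and A2, and 0.24 and 0.50 CPM in serotonin B1 and B2. In the no-ligand libraries HTR1E had 175.4 and 180.8 CPM in A1 and A2, and no read pair in B1 or B2, where 3 counts would be 1.73 and 0.330 CPM. These counts were not used to place a library in a cell line.

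The transcription factor p53 is kept low in unstressed cells because the ubiquitin ligase MDM2 marks it for degradation. DNA damage and other stresses stabilise p53, which then binds its response elements and activates genes of cell cycle arrest, repair, metabolism and cell death. HEK293 cells were made with adenoviral DNA, and adenoviral proteins in them bind p53 and blunt its activity as a transcription factor. A transcript that p53 controls can also be driven by other factors, so its level is not a measure of p53 alone.

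A p53 response element is a pair of half-sites of 10 bases each. In RefSeq promoter windows (build GRCh38.p14, 250 bases before to 50 after a transcript start), 7 of the 10 genes had a window, 13 windows in all. The p53 half-site, a palindrome that reads the same on both strands, occurred without mismatch in 2 of these 13 windows, 1 each of SESN1 and AEN, against 6.63% of all 35116 windows. A pair of half-sites with at most 2 mismatches in 20 bases of motif and a spacer of up to 13 bases occurred in 4 of the 13 windows, against 7.82% of all windows. These 4 were 2 overlapping windows of a downstream MDM2 start, the AEN window, and a SESN1 window of another start, which is not shown. The pair had no spacer in MDM2 and AEN, and a spacer of 11 bases in SESN1. The windows shown are those with a perfect half-site and that of the MDM2 promoter known to respond to p53. Capitals mark the perfect half-site in SESN1 and AEN, where that of AEN is the first of its pair, and the pair of half-sites in MDM2, which begin 49 (SESN1), 34 (AEN) and 94 (MDM2) bases before the start.
MDM2 downstream start, chr12:68808767-68809066, plus strand: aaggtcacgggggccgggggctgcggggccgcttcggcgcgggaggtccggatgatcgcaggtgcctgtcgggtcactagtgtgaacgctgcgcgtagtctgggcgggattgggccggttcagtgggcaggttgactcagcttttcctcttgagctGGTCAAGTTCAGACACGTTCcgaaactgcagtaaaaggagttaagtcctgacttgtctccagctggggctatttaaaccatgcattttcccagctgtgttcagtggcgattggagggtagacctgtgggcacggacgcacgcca
SESN1, chr6:109008939-109009238, minus strand: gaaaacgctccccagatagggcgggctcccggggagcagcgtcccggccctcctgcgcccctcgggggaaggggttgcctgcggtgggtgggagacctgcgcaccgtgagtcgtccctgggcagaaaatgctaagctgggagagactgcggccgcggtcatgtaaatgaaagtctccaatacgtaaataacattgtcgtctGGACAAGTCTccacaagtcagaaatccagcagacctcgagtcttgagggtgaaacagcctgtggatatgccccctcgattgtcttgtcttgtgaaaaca
AEN, chr15:88621090-88621389, plus strand: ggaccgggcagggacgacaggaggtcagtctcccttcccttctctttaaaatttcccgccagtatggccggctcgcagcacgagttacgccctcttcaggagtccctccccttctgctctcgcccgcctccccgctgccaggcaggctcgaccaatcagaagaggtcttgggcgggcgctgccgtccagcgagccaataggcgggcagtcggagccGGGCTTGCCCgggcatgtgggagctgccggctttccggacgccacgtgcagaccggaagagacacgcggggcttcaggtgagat
These matches are a description of the letters and not of binding. TP53INP1, RRM2B and PHLDA3 were not matched to a window. The other windows, of CDKN1A, GDF15, ZMAT3 and BTG2 among them, held no perfect half-site in these 300 bases. Bases outside the windows were not searched, so a site elsewhere in or near these genes is not excluded.

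Library depth ran between 2604885 and 9072278 read pairs assigned to genes. No-ligand B1 was the shallowest, and the other 7 libraries had at least 5439082 read pairs. It also stood apart in its RNA: mitochondrial genes held 54.4% of its counts, against 17.9% to 36.3% in the other 7 libraries, where serotonin B2 was the highest. Its TMM scaling factor was 0.669 and that of serotonin B2 0.797, the lowest of the 8. Of 5 markers fixed for HEK293, 4 exceeded 1 CPM in every library, NEFM being under it in no-ligand B1 and B2. Of 8 markers of leukocytes, endothelium, fibroblasts and hepatocytes, only COL1A1 passed the filter, and PTPRC had no read pair in any library. The 8 markers summed to between 26 and 335 counts per library, mostly from COL1A1.

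**Figure D1:**
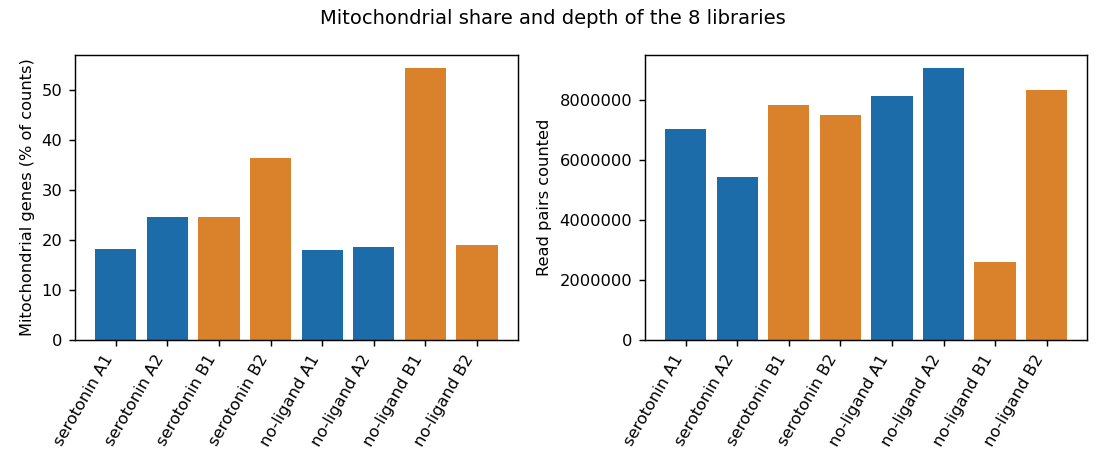
Share of counts on mitochondrial genes (left, percent) and read pairs counted (right) for each library, serotonin libraries first, blue for A-named and orange for B-named. No-ligand B1 has the highest mitochondrial share, 54.4%, and the lowest total, 2604885 read pairs.

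None of the p53 target genes passed the test between serotonin and no ligand. Over all 8 libraries, 0 of the 10 genes passed an adjusted p of 0.05 (edgeR quasi-likelihood test, Benjamini-Hochberg over 17144 genes), against 0% of all genes tested. At an unadjusted p under 0.05 there were 0 of the 10 genes and 640 of all genes (3.73%), and DESeq2 also called 0. The estimates lay below 0 for 8 genes and above 0 for 2, GDF15 and PHLDA3, with a median log2 fold change of -0.17 over the 10 against 0.0028 over all genes tested. The 95% intervals of all 10 genes included 0. None of the 10 genes had serotonin and no-ligand ranges that did not overlap, against 2.18% of all genes tested.

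The per-length level of the genes was also read, in transcripts-per-million (TPM) computed from the deposited counts and gene lengths. These lengths sum all annotated exon bases, 13284 for MDM2 and 3050 for CDKN1A, and can exceed the length of a transcript. Mean CPM, which is not per length, was highest for MDM2, at 242.0 with serotonin and 262.9 without ligand. CDKN1A had the highest TPM of the 10 genes in 8 of 8 libraries, with a median of 116.3 TPM. AEN followed at a median of 54.1 TPM, MDM2 at 44.1, PHLDA3 at 42.0 and BTG2 at 37.5 TPM, and the order of these 4 genes changed between libraries. SESN1 was in sixth place in every library with a median of 21.8 TPM. RRM2B, TP53INP1 and ZMAT3 had medians of 14.1, 10.3 and 9.68 TPM with overlapping ranges. GDF15 had the lowest TPM in 7 of the 8 libraries, with a median of 5.73 TPM. TPM shares the total with the mitochondrial transcripts, and 9 of the 10 genes had their lowest or second lowest TPM in no-ligand B1.

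**Figure D2:**
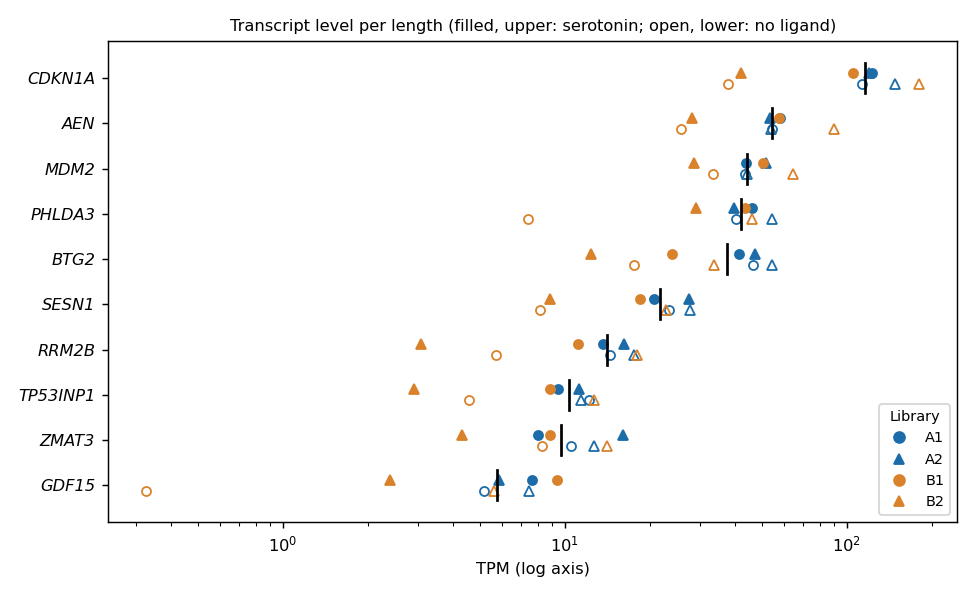
TPM of each p53 target gene in each library on a log axis, genes ordered by median (black line), filled upper symbols for serotonin and open lower symbols for no ligand. CDKN1A lies highest, with a median of 116.3 TPM, and GDF15 lowest, with 5.73 TPM.

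Of the genes of cell cycle arrest, CDKN1A encodes p21, the inhibitor of cyclin-dependent kinases that carries out much of the p53 arrest. The gene (ENSG00000124762.13) lies on the plus strand of chromosome 6, from 36676460 to 36687339 in hg38. CDKN1A had 121.8, 129.6, 133.5 and 85.6 CPM in serotonin A1, A2, B1 and B2, against 109.6, 151.1, 96.7 and 190.7 CPM in no-ligand A1, A2, B1 and B2. The highest value was a no-ligand library and the lowest a serotonin library, both B-named, and the groups overlapped. The mean was 117.6 ± 21.9 CPM with serotonin and 137.1 ± 42.6 CPM without ligand (SD, n = 4 each). The log2 fold change was -0.23 ± 0.27 (SE), with a 95% interval of -0.82 to 0.37 and an edgeR adjusted p of 0.795. Leaving out no-ligand B2 turned the estimate to 0.04.

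BTG2 encodes an antiproliferative adaptor of the mRNA deadenylase complex and is induced early by p53 and by growth factors. It is on chromosome 1 (203305491 to 203309602, plus strand). BTG2 had 37.2, 46.3, 27.5 and 22.8 CPM in serotonin A1, A2, B1 and B2, against 40.7, 50.1, 40.9 and 32.4 CPM in no-ligand A1, A2, B1 and B2. Each serotonin library was below the no-ligand library of the same tag, while the groups as a whole overlapped. The tags were not taken to pair samples. Its log2 fold change of -0.32 ± 0.20 (SE) had the lowest unadjusted p of the 10 genes, 0.141, and an edgeR adjusted p of 0.732. Without no-ligand B1 the estimate was -0.21. Its sign was the same in the A-named libraries, at -0.12, and in the B-named libraries, at -0.52.

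MDM2 encodes the ubiquitin ligase that binds p53 and targets it for degradation, and its downstream promoter, shown above, is itself a p53 target. MDM2 (chromosome 12, 68808176 to 68850686, plus strand) had 191.0, 244.3, 278.7 and 254.1 CPM in serotonin A1, A2, B1 and B2. In no-ligand A1, A2, B1 and B2 it had 182.6, 195.9, 375.5 and 297.7 CPM. The highest value was that of no-ligand B1, the library with the high mitochondrial share, and the treatment groups overlapped. The log2 fold change was -0.07 ± 0.22 (SE), with an interval of -0.56 to 0.43 and an edgeR adjusted p of 0.931. Its estimates were 0.20 in the A-named and -0.34 in the B-named libraries, and 0.10 over the 6 libraries left without no-ligand B1 and serotonin B2. The mitochondrial share was not tested as a part of this result. Of the exon bases of MDM2, 3.3% are shared with another gene on the same strand.

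Of the genes of cell death and survival signalling, AEN encodes a nuclease that is induced in p53-dependent apoptosis. AEN (chromosome 15, 88621296 to 88632282, plus strand) had 113.5, 114.3, 144.1 and 112.9 CPM in serotonin A1, A2, B1 and B2, against 103.7, 108.2, 130.7 and 188.7 CPM in no-ligand A1, A2, B1 and B2. It varied less between libraries than most of the 10 genes, with the highest value 1.82 times the lowest. Its log2 fold change was -0.11 ± 0.22 (SE; edgeR adjusted p = 0.879), and without no-ligand B2 the estimate was 0.06.

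PHLDA3 encodes a small pleckstrin-homology protein that competes with AKT for membrane lipids and so limits AKT activation. PHLDA3 (chromosome 1, 201464383 to 201469237, minus strand) had 47.1, 44.4, 56.9 and 61.1 CPM in serotonin A1, A2, B1 and B2, against 40.4, 57.0, 19.6 and 50.2 CPM in no-ligand A1, A2, B1 and B2. The lowest value was that of no-ligand B1, with 34 read pairs. The log2 fold change was 0.30 ± 0.29 (SE), with an interval of -0.35 to 0.95 and an edgeR adjusted p of 0.756. Without no-ligand B1 the estimate was 0.05, and without no-ligand A2 it was 0.49. Of the exon bases of PHLDA3, 19.1% are shared with another gene on the same strand.

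TP53INP1 encodes a nuclear stress protein that promotes p53-dependent cell death and autophagy. TP53INP1 (chromosome 8, 94925972 to 94949411, minus strand) had 17.5, 22.7, 20.9 and 11.1 CPM in serotonin A1, A2, B1 and B2, against 21.9, 21.7, 21.9 and 24.98 CPM in no-ligand A1, A2, B1 and B2. The no-ligand libraries lay close together, and the lowest value was serotonin B2, the library with the second highest mitochondrial share. The log2 fold change was -0.33 ± 0.24 (SE; edgeR adjusted p = 0.732), and -0.15 without serotonin B2.

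Of the genes of metabolism and nucleotide supply, SESN1 encodes sestrin 1, which restrains the growth kinase complex mTORC1. SESN1 (chromosome 6, 108986437 to 109094819, minus strand) had 34.7, 50.3, 39.4 and 30.2 CPM in serotonin A1, A2, B1 and B2, against 38.0, 47.5, 35.1 and 40.6 CPM in no-ligand A1, A2, B1 and B2. Of the 10 genes it had the smallest spread over the 8 libraries, the highest value being 1.67 times the lowest. Its log2 fold change was -0.07 ± 0.20 (SE), with an interval of -0.52 to 0.38 and an edgeR adjusted p of 0.92.

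RRM2B encodes the p53-inducible small subunit of ribonucleotide reductase, which supplies deoxynucleotides for repair. RRM2B (chromosome 8, 102204502 to 102239118, minus strand) had 24.8, 32.1, 25.6 and 11.4 CPM in serotonin A1, A2, B1 and B2, against 25.5, 32.5, 26.5 and 34.8 CPM in no-ligand A1, A2, B1 and B2. For A1, A2 and B1 the serotonin and no-ligand values nearly coincided, though the tags were not taken to pair samples. Serotonin B2 was the one low library. The log2 fold change of -0.37 ± 0.28 (SE; edgeR adjusted p = 0.732) became -0.13 without serotonin B2.

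Of the remaining genes, ZMAT3 encodes a zinc finger protein that binds RNA and regulates splicing. ZMAT3 (chromosome 3, 179017223 to 179072279, minus strand) had 25.3, 55.1, 35.7 and 27.8 CPM in serotonin A1, A2, B1 and B2, against 32.1, 41.0, 67.4 and 47.4 CPM in no-ligand A1, A2, B1 and B2. Serotonin A1 and A2 differed from each other by more than the treatment means did, which were 36.0 ± 13.5 CPM with serotonin and 47.0 ± 14.98 CPM without ligand (SD, n = 4 each). Its log2 fold change was -0.35 ± 0.30 (SE), with an interval of -1.02 to 0.32 and an edgeR adjusted p of 0.74. With each library left out in turn, the estimate ran from -0.71 without serotonin A2 to -0.15 without no-ligand B1.

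GDF15 encodes a secreted stress cytokine of the TGF-beta superfamily that acts through a brainstem receptor, and it responds to p53 and to the integrated stress response. GDF15 (chromosome 19, 18374731 to 18389176, plus strand) was the scarcest of the 10 genes, with 42, 26, 67 and 20 read pairs in serotonin A1, A2, B1 and B2, against 32, 53, 1 and 37 read pairs in no-ligand A1, A2, B1 and B2. These were 5.203, 4.34, 8.18 and 3.35 CPM with serotonin, against 3.42, 5.22, 0.58 and 4.07 CPM without ligand. The single read pair of no-ligand B1 lies under its limit of 3 counts, 1.73 CPM. The log2 fold change was 0.54 ± 0.45 (SE), the widest error of the 10 genes, with an interval of -0.45 to 1.54 and an edgeR adjusted p of 0.737. With each library left out in turn, the estimate ran from 0.19 without serotonin B1 to 0.78 without no-ligand A2.

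**Figure D3:**
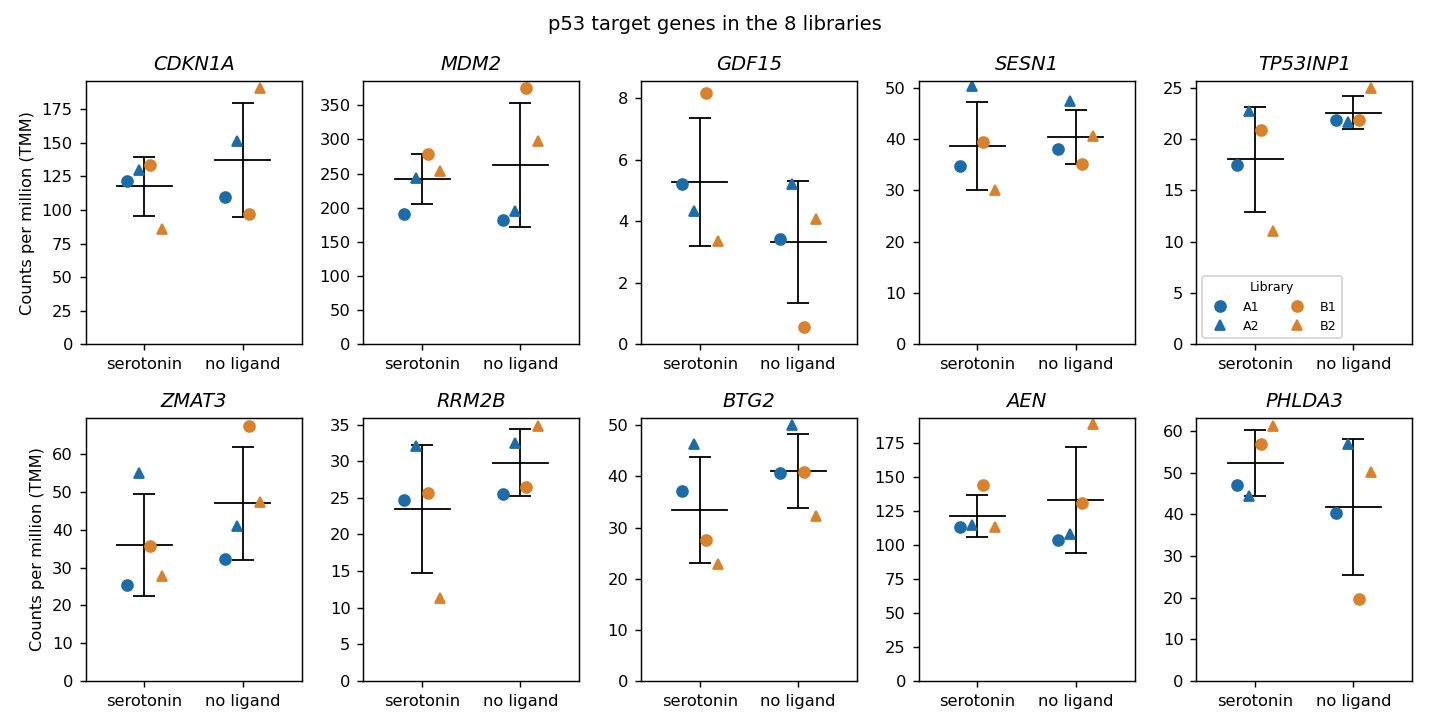
Normalised CPM of each p53 target gene by treatment, serotonin on the left, blue for A-named and orange for B-named libraries, circles for A1 and B1 and triangles for A2 and B2; the lines and bars are the mean and SD of 4 libraries. In all 10 genes the treatment groups overlap, as for CDKN1A, whose means are 117.6 and 137.1 CPM with serotonin and without ligand.

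Within the A-named libraries, the 4 in which HTR1E was counted at 175.4 CPM or above, the estimates were closest to 0 among the 3 fits for 9 of the 10 genes, MDM2 being the exception. They ran between -0.12 (BTG2) and 0.20 (MDM2), with a median of -0.02 against -0.02 over all genes tested. None of the 10 genes passed the test (edgeR adjusted p = 1 for each), against 0% of all genes, and DESeq2 called 0 genes. At an unadjusted p under 0.05 there were 0 of the 10 genes and 62 of all 17144. The 95% intervals were wide: they reached from -0.46 to 0.86 for MDM2 and from -0.86 to 0.76 for CDKN1A. They came from 2 libraries against 2 and from a spread estimated over all 8 libraries, B-named ones included. With the 4 A-named libraries fitted alone, 307 of 16196 genes had an unadjusted p under 0.05 (edgeR), and 0 of the 10 genes.

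Within the B-named libraries, in the same fit with its shared spread, the estimates lay farther from 0 and the errors were as large. ZMAT3 had a log2 fold change of -0.83 ± 0.37 (SE), with an interval of -1.65 to -0.02, an unadjusted p of 0.045 and an edgeR adjusted p of 0.18. RRM2B had -0.74 ± 0.37 (edgeR adjusted p = 0.224), TP53INP1 -0.56 ± 0.33 (adjusted p = 0.295) and BTG2 -0.52 ± 0.28 (adjusted p = 0.245). PHLDA3 had 0.69 ± 0.37 (edgeR adjusted p = 0.253) and GDF15 0.97 ± 0.62 (adjusted p = 0.336). The remaining 4 genes, CDKN1A, MDM2, AEN and SESN1, lay between -0.40 and -0.13. In all, 8 of the 10 genes were below 0 and 2 above, with a median of -0.37 against 0.01 over all genes tested, and 0 of the 10 were called by edgeR against 0.0117% of all genes. That share depended on the setting: DESeq2 called 9.33% of all genes, the fit with a replicate block 12.9% and the fit without the filter on low counts 5.14%, with 0 of the 10 genes called in each. An unadjusted p under 0.05 was reached by 1 of the 10 genes and by 26.5% of all genes tested.

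The 4 libraries of the B-named comparison include the 2 with the highest mitochondrial shares, 1 in each treatment. RRM2B had -1.44 without serotonin B1 and -0.27 without serotonin B2, and TP53INP1 had -1.08 and -0.17 without the same libraries. GDF15 had 0.18 without serotonin B1. With no-ligand B2 left out, so that no-ligand B1 stood alone, GDF15 (3.34), PHLDA3 (1.62) and ZMAT3 (-1.05) passed the test, while 26.3% of all genes did so. With no-ligand B1 left out instead, so that no-ligand B2 stood alone, these genes had 0.52, 0.23 and -0.58. Without no-ligand B1 and serotonin B2 together, the median of the 10 genes in the B-named libraries was -0.26, against 0.01 over all genes tested. How far the mitochondrial share contributes was not tested.

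**Figure D4:**
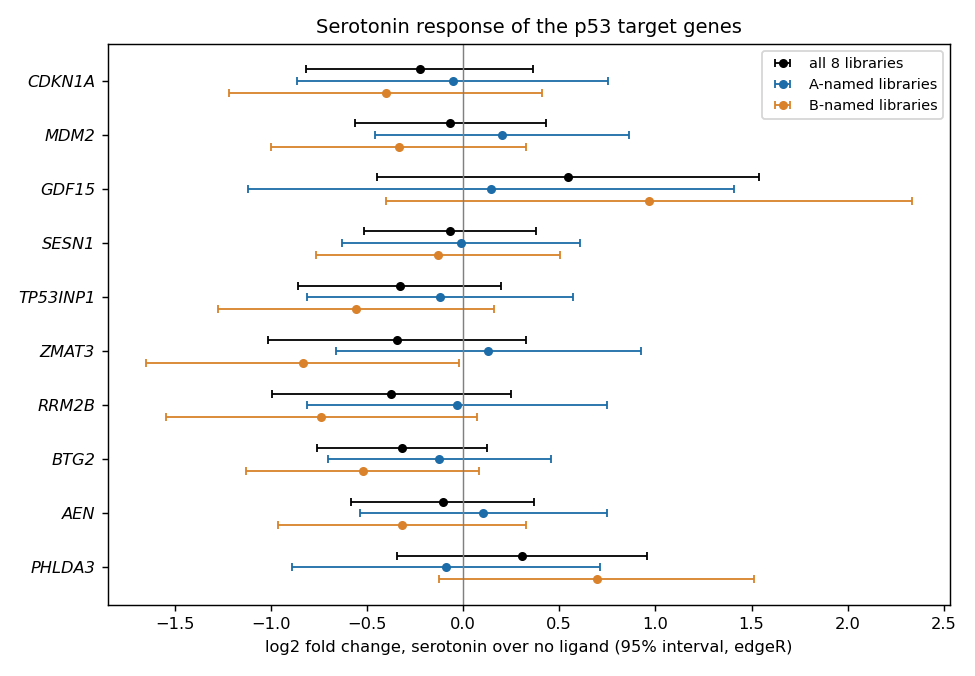
Log2 fold change of serotonin over no ligand with 95% interval (edgeR) for each p53 target gene, over all 8 libraries (black), the A-named libraries (blue) and the B-named libraries (orange). The intervals include 0 except that of ZMAT3 in the B-named libraries, -1.65 to -0.02, whose adjusted p is 0.18.

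The 2 genes called by edgeR's quasi-likelihood test in the B-named libraries were outside the p53 group, and they were named after their values were seen. NR4A1 and NR4A2, nuclear receptors of the immediate early response, had log2 fold changes of 2.61 ± 0.28 and 2.71 ± 0.31 (SE; edgeR adjusted p = 0.0205 for both). NR4A1 had 718 and 623 read pairs in serotonin B1 and B2, against 28 and 141 in no-ligand B1 and B2. NR4A2 had 538 and 405 read pairs in serotonin B1 and B2, against 23 and 77 in no-ligand B1 and B2. The count of 2 became 1599 with DESeq2, 2218 with the replicate block and 1830 without the filter on low counts. It was 0 with library totals and no scaling factor, and with single libraries left out it ran from 0 without serotonin B2 to 4846 without no-ligand B2.

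The wider p53 pathway gave no gene called by the main edgeR fit either. Of 41 further p53 targets, 40 passed the filter, and 19 lay above and 21 below 0 over all 8 libraries, with a median log2 fold change of -0.02 and 0 called. The largest estimates were those of PIDD1, a scaffold of the caspase-2-activating complex, at 0.85 ± 0.40 (SE; edgeR adjusted p = 0.732), PLK3, a stress-responsive kinase, at 0.57 ± 0.23 (adjusted p = 0.732), and POLH, a translesion DNA polymerase, at -0.49 ± 0.28 (adjusted p = 0.732). TRIM22 did not pass the filter.

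Of 23 regulators and cofactors of p53, 22 passed the filter, TP63 being the exception, and 10 lay above and 12 below 0, with a median of -0.09. HIPK2, a kinase that phosphorylates p53, had -0.66 ± 0.46 (SE), RCHY1, a p53 ubiquitin ligase, -0.53 ± 0.25, and PPP1R13L, an inhibitor of p53, 0.53 ± 0.28 (edgeR adjusted p = 0.732 for each). Of 18 cell cycle genes that p53 represses through p21 and the DREAM complex, 10 lay above and 8 below 0, with a median of 0.01 and 0 called. AURKB had 0.53 ± 0.31 (SE), CCNA2 -0.51 ± 0.18 and TOP2A -0.42 ± 0.24 (edgeR adjusted p = 0.732 for each). In the A-named and in the B-named libraries, too, edgeR called 0 genes of these 3 lists, against 0% and 0.0117% of all genes tested. Calls of these lists under the other settings were not counted. An unadjusted p under 0.05 (edgeR) was reached in the B-named libraries by 8 of 40 further targets, 7 of 22 regulators and 4 of 18 repressed genes. The share of all genes was 26.5%. PIDD1 had 1.78, PLK3 1.04 and POLH -1.10 there (edgeR adjusted p = 0.065, 0.072 and 0.078). In the B-named libraries the medians were 0.10 for the further targets, -0.16 for the regulators and 0.14 for the repressed genes. In the A-named libraries they were -0.09, 0.05 and -0.08.

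**Figure D5:**
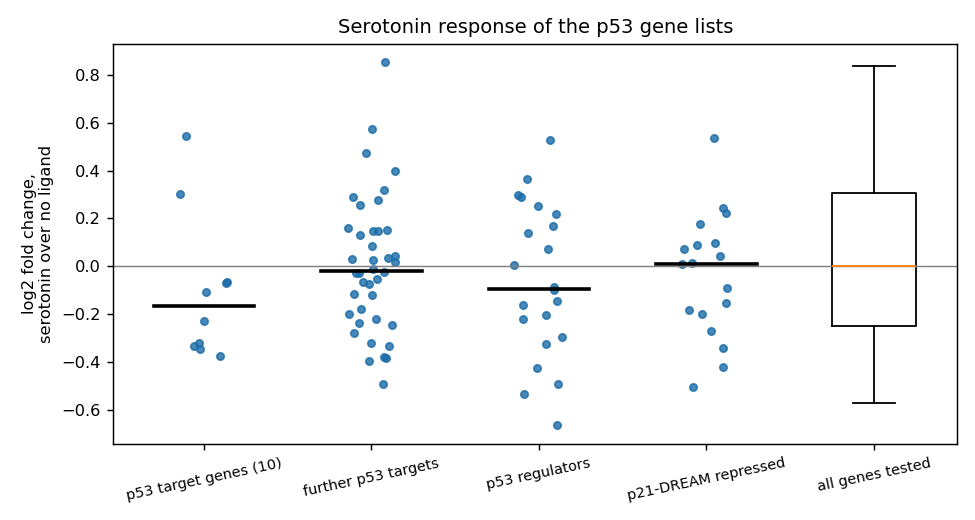
Log2 fold change of serotonin over no ligand over all 8 libraries for the 10 p53 target genes and 3 further p53 lists, a point for each gene that passed the filter and a bar at the median; the box for all genes tested shows the median and quartiles, with whiskers at the 5th and 95th percentiles. The list medians are -0.17, -0.02, -0.09 and 0.01, and the median of all genes is 0.0028 with quartiles of -0.25 to 0.31. The quartiles are of single genes and not of list medians.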

How the data were processed

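The deposited table holds unnormalized counts of read pairs for 8 libraries. These were made by the authors with featureCounts 2.0.1 per the file headers, reverse-stranded, on GENCODE release 28, from files named for cutadapt and marked duplicates; gene lengths are the deposited sums of exon bases. The submitters' processing notes name hg38, STAR 2.7.8a, Bowtie2, cutadapt 3.4 and SAMtools 1.12. Symbols were matched for 57799 of 58440 gene IDs. Libraries were placed in a treatment by name only, and none in a cell line.

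Counts were filtered with filterByExpr (minimum count 10), scaled by TMM and tested with edgeR 4.0.16 in R 4.3.3 (quasi-likelihood, name letter and treatment as terms; contrasts within a letter came from a fit with 4 means). P-values were adjusted over 17144 genes and called under 0.05. CPM use TMM-scaled totals. DESeq2 1.42.0 was an alternative. The test was tried on simulated counts that held no letter effect and no library with a high mitochondrial share. No result here rests on that trial. The members and lists were chosen with earlier results of these data known. The text names all 10 members, HTR1E and the 3 genes of each further list with the largest estimates, none being called. One further gene named by the rule is not reported here. NR4A1 and NR4A2 were named after their values were seen, and NEFM, COL1A1 and PTPRC as cell type markers. Limits from 3 counts cover counting error only.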

Additional observations from a re-analysis of the deposited data

Results flagged for a closer look

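A sample far from the other 3 of its treatment was found in 4 of 26 tests (Dixon's test at the 95% level), and chance flags about 1 in 20 groups. TP53INP1 was high in no-ligand B2, at 24.98 CPM, where the other 3 no-ligand libraries lay together. AEN was high in serotonin B1, at 144.1 CPM. No-ligand B1 was low in depth, with 2604885 read pairs, and high in its mitochondrial share, 54.4%.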

How the results depend on the processing

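Over all 8 libraries, 0 genes were called with size factors from DESeq2, with the DESeq2 test, without the letter term, with the replicate block, and with each library left out (0 to 0); without the filter on low counts 43 of 35617 genes were called. None of the 10 p53 target genes was called under any of these. In the A-named libraries 0 genes were called under every setting run. In the B-named libraries the 2 calls became 1830 without the filter, 1599 with DESeq2, 2218 with the replicate block, 9 with only the 4 libraries of that letter, and 0 to 4846 with each library left out in turn, the highest without no-ligand B2, which moved the median of all genes to 0.15. Chosen after the data were seen, leaving out no-ligand B1 and serotonin B2 gave 84, and library totals with no scaling gave 0. None of the 10 p53 target genes was called in any setting except that without no-ligand B2, where no-ligand B1 stood alone. GDF15, PHLDA3 and ZMAT3 then had log2 fold changes of 3.34, 1.62 and -1.05 in the B-named libraries. That setting is described above with the share of all genes called. The cause of the differences between settings was not tested.

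Some estimates, none of them called, changed sign. Leaving out no-ligand B1 and serotonin B2 gave MDM2 0.10 and PHLDA3 -0.0040 over the rest, and SESN1 in the A-named libraries was 0.0014 with those 4 libraries alone and 0.0050 without mitochondrial genes. With each library left out, the estimates over all 8 libraries ran between -0.17 and 0.060 for AEN, -0.35 and 0.043 for CDKN1A, -0.19 and 0.066 for MDM2, and -0.20 and 0.017 for SESN1. In the A-named libraries they ran between -0.29 and 0.027 (BTG2), -0.28 and 0.19 (CDKN1A), -0.14 and 0.48 (GDF15), -0.33 and 0.17 (PHLDA3), -0.23 and 0.15 (RRM2B), -0.31 and 0.21 (SESN1), -0.32 and 0.040 (TP53INP1), and -0.54 and 0.57 (ZMAT3). In the B-named libraries they ran between -0.55 and 0.0089 (AEN), -0.80 and 0.21 (CDKN1A), and -0.32 and 0.057 (SESN1). A lone library left in an arm was assumed to vary like the others.

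The replicate block took libraries of one tag as a pair. Deviations of same-tag libraries correlated at 0.0035 (A) and 0.15 (B) over 17144 genes. With 2 libraries per letter and treatment, each value compares a single pair of differences and cannot decide whether same-tag libraries were paired. What the tags stand for is not given, so the tags were not taken to pair samples. Depth limits GDF15 most, with 1 to 67 read pairs.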

Other observations

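By the first letter of the name, which the labels tie to no cell line, MDM2 was the 1 gene of the 10 whose values formed separate ranges. It had 191.0, 244.3, 182.6 and 195.9 CPM in serotonin A1, serotonin A2, no-ligand A1 and no-ligand A2. It had 278.7, 254.1, 375.5 and 297.7 CPM in serotonin B1, serotonin B2, no-ligand B1 and no-ligand B2. Of all genes tested, 17.6% formed separate ranges by letter. The 10 genes had a median SD of 0.371 on the log2(CPM + 0.5) scale over the 8 libraries, against 0.487 for all genes tested. These sets were not matched for expression level, and GDF15, the scarcest of the 10, had an SD of 0.88.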
